A study of Rattus norvegicus with 9 samples.

Results

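Livers of rats given carbon tetrachloride (CCl4) and rottlerin were compared with livers of rats given CCl4 alone, to ask which transcripts differed when rottlerin was added to a fibrosis-inducing treatment. The comparison used 6 of the 9 arrays of the series, 3 from CCl4 rats (numbered 1, 2 and 3) and 3 from CCl4+Rot rats (numbered 4, 5 and 6), with 1 liver on each array. All were male Sprague-Dawley rats. The CCl4 rats received 0.2 mL per 100 g of a mix of CCl4 and olive oil into the abdominal cavity 2 times a week for 8 weeks, and the CCl4+Rot rats had, beside CCl4, intraperitoneal rottlerin at 2.5 mg/kg that began 2 weeks after the first CCl4 injection. The remaining 3 arrays, from vehicle-treated rats without CCl4, entered the estimate of the spread and are given for reference. The study used 18 rats, and how the arrayed animals were chosen is not given in the sources used here. Whole liver was extracted, so that fewer cells of a type and less RNA per cell cannot be told apart. Because each array was a separate rat, the p-values below set a difference against the spread between rats within groups, pooled over the groups.

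CCl4 is converted by hepatocyte cytochrome P450 enzymes to a radical that kills the cells around the central vein, and repeated dosing leaves scar tissue laid down by activated hepatic stellate cells. Rottlerin is a plant polyphenol that opens BK channels, the large-conductance potassium channels gated by calcium and voltage, and was long applied as a blocker of the kinase PKC delta. Interferons, through their receptors and transcription factors such as STAT2 and IRF9, switch on a wide set of antiviral genes, whereas the SREBP2 transcription factor switches on the enzymes of cholesterol synthesis when the sterol content of the endoplasmic reticulum is low.

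Each transcript was read by a probe set, a group of short oligonucleotides, and its value is a log2 signal with a call of present, marginal or absent. Of 31042 probe sets, 11478 (36.98%) were called present on all 6 arrays. A gene was taken as well detected when such a probe set carried its symbol alone, which gave 7371 of the 14377 genes with a symbol on the array, each read by its brightest well detected probe set. CCl4 replicate 3 had a raised background. It had 12714 present calls, compared with 15550 to 16849 on the other 8 arrays, and probe sets absent everywhere else had median log2 signals of 5.72 there against 4.12 to 4.63 elsewhere. The median of the well detected genes was between 9.70 and 9.80 on all 9 arrays. Differences were therefore also computed without it. All 11 hepatocyte markers on the array were well detected, while the pancreatic acinar and skeletal muscle markers had 0 well detected genes.

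CCl4+Rot livers had higher signals of interferon-stimulated genes, led by Slfn3, Mx1, Oas1a and Ifit3, and lower signals of cholesterol synthesis genes such as Dhcr7 and Mvd and of the sterol transporter gene Abcg5. Across all well detected genes the difference between CCl4+Rot and CCl4 livers was small, with a median of 0.03 on the log2 scale (0.02 without CCl4 replicate 3), quartiles of -0.12 and 0.17, 4099 genes higher and 3272 lower. The limma test over all 31042 probe sets called 1 of them (0.00322%) with a difference of 1.5-fold or more and an adjusted p below 0.05. It was a probe set without a symbol that was absent on every array, so it is given no fold, and no well detected gene was called. The smallest adjusted p of a well detected gene in this test was 0.276, for Slfn3. At an unadjusted p below 0.05, 179 of these genes were higher and 93 lower, 3.69% of the 7371.

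Counted by size, 177 well detected genes (2.4%) were at least 1.5-fold higher with rottlerin and 190 (2.58%) were at least 1.5-fold lower. Quantile normalization gave 234 and 152. The 177 became 321 without CCl4 replicate 2, and the 190 became 365, 313 and 124 without CCl4 replicates 1, 2 and 3. The 3 CCl4+Rot values lay above all 3 CCl4 values for 582 genes (7.9%) and below them for 305 (4.14%), against 529 and 478 after quantile normalization and 472 and 396 after centring on detected probe sets. Both conditions, no overlap and a 1.5-fold difference with and without CCl4 replicate 3, were met by 94 genes (1.28%) in the higher direction and 40 (0.543%) in the lower. The genes described first were the 12 of each direction with the smallest p among these.

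**Figure D1:**
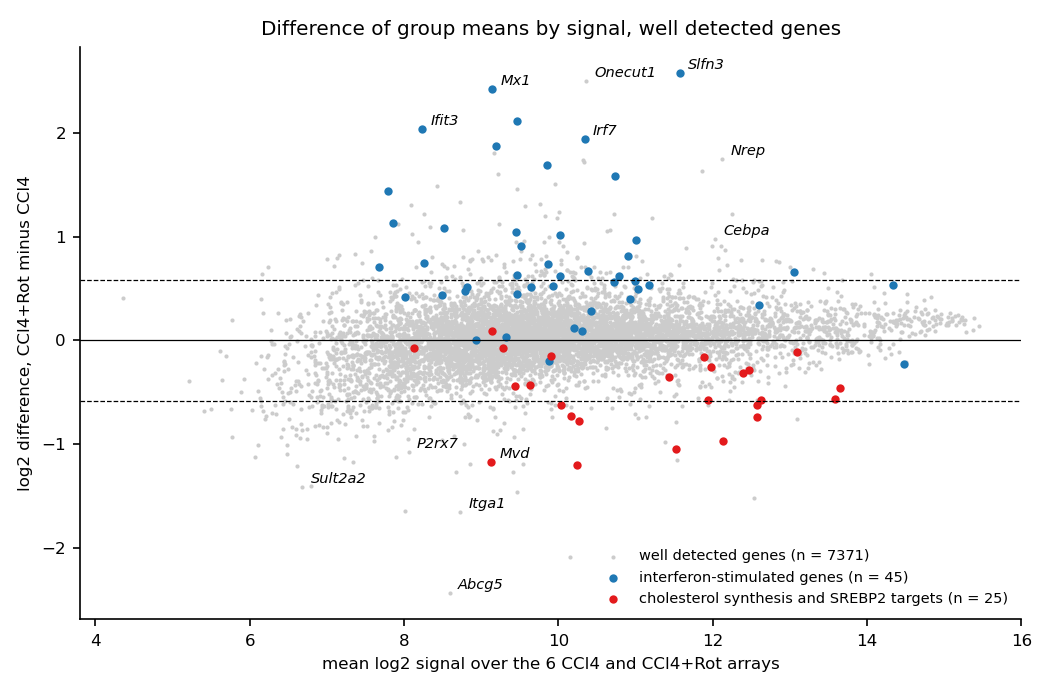
Log2 difference between the CCl4+Rot and CCl4 group means (vertical axis) against the mean log2 signal over the 6 arrays (horizontal axis) for 7371 well detected genes in grey, with 45 interferon-stimulated genes in blue and 25 cholesterol synthesis and SREBP2 target genes in red. Dashed lines mark 1.5-fold. The blue points lie mostly above 0 and the red points below it, and Slfn3 at 2.58 and Abcg5 at -2.44 are the extremes.

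A second limma fit, named the robust fit, took in the 11478 detected probe sets alone, let the spread vary with signal level and gave outlying probe sets less influence. It called 9 of them (0.0784%), all of which rose with rottlerin. They were Slfn3, Ms4a6a, Ifit3, Mx2, Slfn5, a probe set of Cebpa, a probe set shared by the mast cell protease gene Mcpt10 and RGD1565970, and 2 probe sets without a symbol. Without CCl4 replicate 3 the same fit called 14 probe sets, again all higher, of which 6 were shared with the 9. Irf7, Mx1, Herc6, Slc22a23 and further probe sets of Cebpa then joined the calls, while Ms4a6a, with an adjusted p of 0.0558, the probe set of Mcpt10 and RGD1565970 and 1 of those without a symbol were not called. At an unadjusted p below 0.05 the fit with all arrays gave 1026 probe sets.

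Slfn3 showed the largest difference of all well detected genes. It encodes a member of the Schlafen family, a group of interferon-inducible regulators of cell growth, and the deposited table places it on chromosome 10. Its log2 signal was 9.99, 10.21 and 10.66 in CCl4 livers and 12.80, 13.09 and 12.69 in CCl4+Rot livers. The rule that chose the leading genes required that the CCl4 and CCl4+Rot values not overlap. The vehicle livers lay between these groups at 11.89, 12.07 and 11.31. The difference was 2.58 ± 0.27 (SE), or 5.96-fold, and it was 2.76 without CCl4 replicate 3. Its adjusted p in the robust limma fit was 0.00108. SEs here and below come from the limma test over all probe sets, whose spread is estimated from all 9 arrays. Another probe set of Slfn3 was absent on every array. Slfn5, of the same family and also on chromosome 10, was 8.62, 9.29 and 9.42 in CCl4 livers and 10.24, 10.58 and 10.44 in CCl4+Rot livers. It rose by 1.31 ± 0.24 (SE). The adjusted p was 0.039 in the robust limma fit and 0.504 in the limma test over all probe sets. The vehicle livers, at 9.44 to 9.67, lay between the treated groups.

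The antiviral effector genes followed the same order of groups. Ifit3, whose protein binds viral RNA together with its relatives, was 6.72, 7.12 and 7.81 in CCl4 livers and 9.12, 9.65 and 8.99 in CCl4+Rot livers. The rise was 2.04 ± 0.35 (SE). Its adjusted p was 0.039 in the robust limma fit and 0.504 in the limma test over all probe sets. Mx2, a dynamin-like GTPase that blocks viral replication, was 8.02, 7.92 and 8.83 in CCl4 livers and 10.10, 10.57 and 9.72 in CCl4+Rot livers. The rise was 1.87 ± 0.33, with the same adjusted p-values. In both genes CCl4 replicate 3 was the highest of its group. Its relative Mx1 was 6.97, 7.88 and 8.93 in CCl4 livers and 10.33, 10.70 and 10.04 in CCl4+Rot livers. The difference of 2.42 ± 0.50 (5.37-fold) had an adjusted p of 0.104 in the robust fit, and it was 2.93 with an adjusted p of 0.0257 without CCl4 replicate 3. In Mx1 the vehicle livers, at 9.06, 9.44 and 8.46, were all below the rottlerin livers.

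Oas1a encodes an oligoadenylate synthetase, which senses viral RNA and activates RNA decay. Its log2 signal was 8.09, 8.18 and 8.94 in CCl4 livers, 10.69, 10.95 and 9.91 in CCl4+Rot livers and 10.04, 10.89 and 10.05 in vehicle livers. The rottlerin and vehicle values overlapped, and both lay above the CCl4 values. The difference from CCl4 was 2.12 ± 0.39 (SE), with an adjusted p of 0.0602 in the robust fit. Eif2ak2, the kinase PKR that stops translation on sensing viral RNA, differed by 1.04 ± 0.22, from 8.74, 8.91 and 9.14 to 9.69, 10.30 and 9.92. Ddx60, a helicase of the RNA-sensing pathway, differed by 1.81 ± 0.39, from 7.48, 8.50 and 8.82 to 9.81, 10.52 and 9.89. Their adjusted p-values in the robust fit were 0.0683 and 0.102. The groups of neither gene overlapped, which the rule that chose the leading genes required.

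Irf7 is the transcription factor that amplifies interferon production. It was 8.67, 9.30 and 10.15 in CCl4 livers, 11.26, 11.68 and 11 in CCl4+Rot livers and 10.30, 10.96 and 10.37 in vehicle livers. The rottlerin livers were the highest of the 9, and CCl4 replicate 3 came closest to the vehicle livers. The difference of 1.94 ± 0.40 (SE) had an adjusted p of 0.102 in the robust limma fit and of 0.0254 without CCl4 replicate 3, where it was 2.33. The interferon-activated factors Stat2 and Irf9 differed less, by 0.67 and 0.74, and their groups did not overlap. Irf1, an early target of interferon gamma, was 9.65 to 10.53 in CCl4 livers and 9.63 to 10.03 in CCl4+Rot livers, and its difference of -0.20 became 0.07 without CCl4 replicate 3.

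Of the 62 symbols on the interferon list, 52 were on the array and 45 were well detected. Of these, 43 were higher with rottlerin and 2 lower. Without overlap 27 were higher, against 7.9% of all well detected genes, and 0 were lower. At least 1.5-fold higher were 24, against 2.4%. The median difference was 0.62, against 0.03 for all well detected genes, and it was 0.81 without CCl4 replicate 3, with 37 members then higher without overlap. Without that liver 1019 of all well detected genes (13.8%) were higher without overlap, since fewer livers separate more easily. It stayed between 0.56 and 0.81 with any array left out in turn. At an unadjusted p below 0.05 limma gave 26 members higher and 0 lower. The median log2 signal of the 45 genes was 9.43, 9.56 and 9.77 in CCl4 livers, 10.33, 10.52 and 10.15 in CCl4+Rot livers and 10.01, 10.14 and 9.80 in vehicle livers. The 2 members that were lower were Irf1 and Ifi27l2b, at -0.20 and -0.22, and Plscr1, Nmi, Ifitm2 and Ifi35 differed by 0.00 to 0.11. Interferon-stimulated genes made up 19 of the 94 genes that were higher without overlap and by 1.5-fold, and 7 of the 12 with the smallest p.

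Among members outside the leading genes, Usp18, the protease that removes ISG15 and restrains interferon signalling, was 8.70, 8.66 and 9.65 in CCl4 livers and 10.33, 11.41 and 10.34 in CCl4+Rot livers, a difference of 1.69. Rtp4, an antiviral protein induced by interferon, was 10.14, 9.61 and 10.07 against 11.49, 12.06 and 11.01, a difference of 1.58. Herc6, a ligase that attaches ISG15, was 7.11, 6.44 and 7.67 against 8.22, 8.74 and 8.56, a difference of 1.43. The cytosolic RNA sensors were separated to different degrees. Dhx58 differed by 0.75 without overlap, whereas Ddx58 (RIG-I) and Ifih1 (MDA5) differed by 0.57 and 0.47 and their groups overlapped through CCl4 replicate 3, whose values of 11.13 and 9.11 lay within the rottlerin range. The chemokine genes Cxcl10 and Cxcl9, which respond mainly to interferon gamma, differed by 0.42 and 0.43 with overlap and by 0.85 and 0.72 without CCl4 replicate 3, and their vehicle values of 8.28 to 8.63 and 9.81 to 10.14 were at or above most rottlerin values. Cxcl11, which acts on the same receptor, was 10.61, 10.69 and 10.89 in CCl4 livers and 11.31, 11.07 and 11.01 in CCl4+Rot livers, a difference of 0.40 without overlap.

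Promoters of these genes were read for GAAANNGAA, the core of the element bound by interferon-activated factors, on either strand, in RefSeq sequence of the GRCr8 build from 250 bases before to 50 bases after each gene's start. Of the 45 members, 36 had such a promoter, and 22 of them (61.11%) held the motif, compared with 2820 of all 27457 promoters (10.27%). Among the members without overlap it was 12 of 21. The stretches from 120 bases before to 20 bases after the start are shown for 5 of the 12 leading genes that held a match there. Capitals mark the matches, of which 2 overlap in Oas1a, and which run along the opposite strand in Slfn3, Ifit3 and Irf7. A match describes the letters only.
Slfn3 (chr10:68515695-68515834, + strand): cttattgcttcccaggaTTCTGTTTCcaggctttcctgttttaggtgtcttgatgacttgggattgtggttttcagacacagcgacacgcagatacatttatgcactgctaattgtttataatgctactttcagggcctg
Ifit3 (chr1:241527206-241527345, + strand): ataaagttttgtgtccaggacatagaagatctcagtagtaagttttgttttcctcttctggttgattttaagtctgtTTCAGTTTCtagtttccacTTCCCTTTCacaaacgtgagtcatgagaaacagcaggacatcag
Oas1a (chr12:41330346-41330485, + strand): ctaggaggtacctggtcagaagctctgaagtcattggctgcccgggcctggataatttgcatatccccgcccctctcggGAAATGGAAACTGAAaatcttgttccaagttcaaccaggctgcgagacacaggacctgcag
Irf7 (chr1:205800004-205800143, - strand): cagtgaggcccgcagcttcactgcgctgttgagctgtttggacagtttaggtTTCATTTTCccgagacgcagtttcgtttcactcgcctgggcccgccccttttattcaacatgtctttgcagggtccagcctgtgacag
Eif2ak2 (chr6:21941034-21941173, + strand): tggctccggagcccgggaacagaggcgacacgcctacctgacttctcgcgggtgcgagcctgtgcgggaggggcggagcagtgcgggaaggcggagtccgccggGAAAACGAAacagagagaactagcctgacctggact

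The MHC class I and immunoproteasome genes, which load and cut peptides for display to T cells, had 13 well detected members. Of these 12 were higher and 1 lower, with a median of 0.19 (0.26 without CCl4 replicate 3, 0.09 without CCl4 replicate 1). Without overlap 4 were higher, against 7.9% of all well detected genes. The non-classical class I gene RT1-S3 was 11.70, 11.52 and 11.75 in CCl4 livers and 12.53, 12.99 and 12.18 in CCl4+Rot livers, close to the vehicle values of 12.65 to 12.73. Psmb8, a catalytic subunit of the immunoproteasome, was 10.92, 11.18 and 11.28 against 11.76, 11.67 and 11.75. Their differences were 0.91 ± 0.22 and 0.60 ± 0.19 (SE), with adjusted p-values of 0.104 and 0.212 in the robust limma fit. RT1-T24-4 differed by 1.73, but its CCl4 values ran from 7.41 to 10.55 and the interval of the difference included 0. The other subunits and transporters, Psmb9, Psmb10, Psme1, Psme2 and Tap2, differed by 0.09 to 0.16, and Tapbp by -0.32. The class I genes of the rat are near-identical copies, so that their signals may be shared. Of 5 MHC class II genes, RT1-Ba was higher without overlap, by 1.06, and the rest overlapped.

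**Figure D2:**
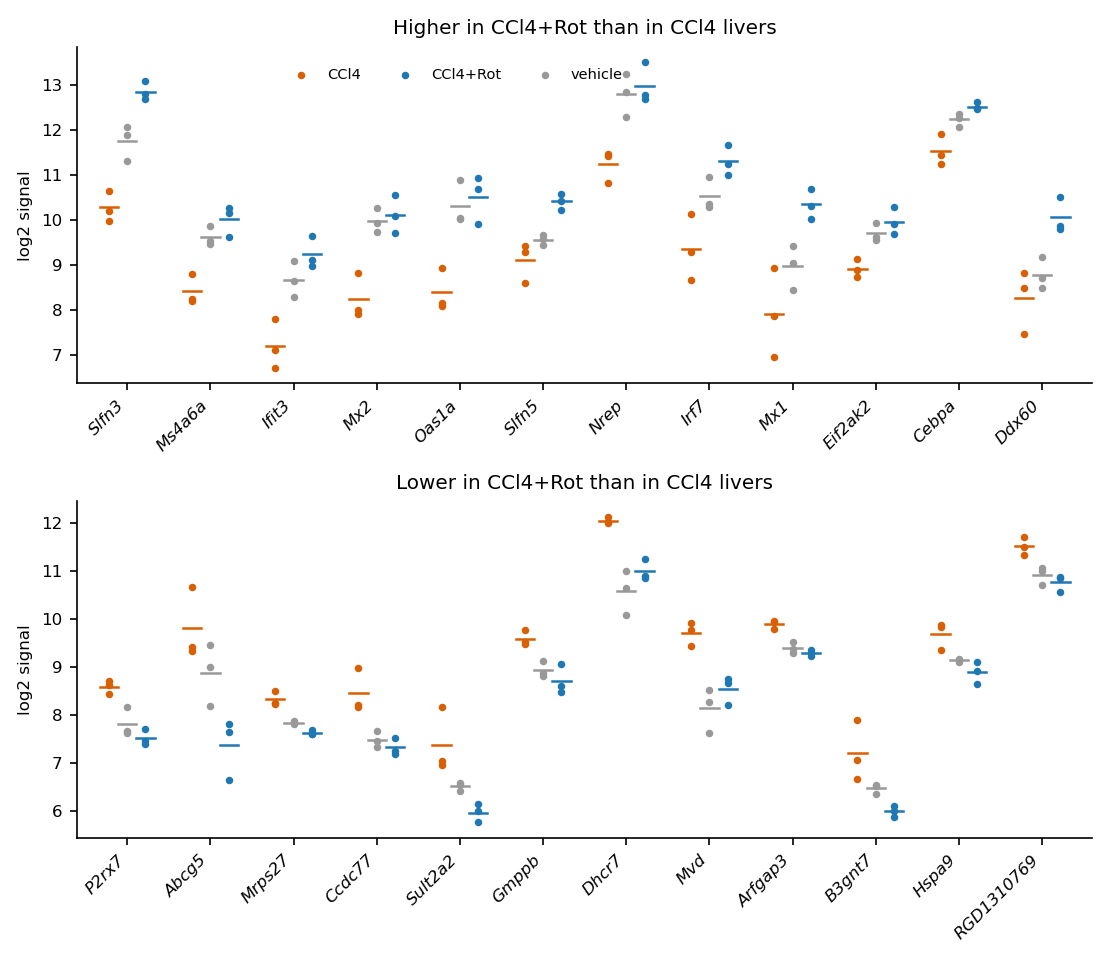
Log2 signal of each liver for the 12 genes of each direction with the smallest p among those without overlap and past 1.5-fold with and without CCl4 replicate 3, with CCl4 livers in orange, vehicle livers in grey and CCl4+Rot livers in blue, and a bar at each group mean. The orange and blue points are separate in every gene by the rule that chose them, while the grey points lie between, beside or beyond them, as in Slfn3 (11.31 to 12.07), Nrep (12.30 to 13.24) and Mvd (7.63 to 8.53).

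Of the 12 leading genes that were higher, Ms4a6a, Slfn5, Nrep, Cebpa and Ddx60 were not on the interferon list. Ms4a6a, a membrane protein gene expressed by macrophages, was 8.20, 8.82 and 8.25 in CCl4 livers, 9.63, 10.28 and 10.16 in CCl4+Rot livers and 9.48 to 9.87 in vehicle livers. It rose by 1.60 ± 0.26 (SE), and the rottlerin and vehicle values overlapped. The adjusted p was 0.0381 in the robust limma fit and 0.477 in the limma test over all probe sets. The 20 macrophage and Kupffer cell markers on the array had a summed signal of 57298.5 to 71013 in CCl4 livers and 61680.1 to 76989 in CCl4+Rot livers. These ranges overlapped, and whether macrophage content had a part in the Ms4a6a result was not tested. Of the 18 well detected markers 15 were higher and 3 lower, with a median of 0.17. Only Clec4f and Cd5l, both made by Kupffer cells, were without overlap, higher by 0.56 and 0.39. Of all well detected genes 7.9% were higher without overlap. Cd163, Mrc1 and C1qb of the same list differed by 0.10, 0.11 and 0.16 with overlap. Trem2, a marker of scar-associated macrophages, was absent on all 6 arrays.

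Cebpa encodes the transcription factor C/EBP alpha, which maintains the metabolic program of hepatocytes. All 5 of its probe sets were detected. The brightest was 11.45, 11.26 and 11.92 in CCl4 livers, 12.62, 12.47 and 12.49 in CCl4+Rot livers and 12.08 to 12.37 in vehicle livers. Its difference was 0.98 ± 0.21 (SE). The adjusted p was 0.0602 in the robust limma fit and 0.608 in the limma test over all probe sets. The others differed by 0.78, 1.06 and 1.06, and the remaining probe set by 0.39 with overlap. Of those at 1.06, a single probe set was called, with an adjusted p of 0.039, and 4 of the 5 were called without CCl4 replicate 3. Onecut1, the hepatocyte factor HNF6, was singled out after its values were seen because its difference was the closest to that of Slfn3. Its brighter probe set was 9.75, 8.13 and 9.47 in CCl4 livers and 11.63, 12.46 and 10.75 in CCl4+Rot livers, and the dimmer was 7.53, 6.95 and 7.78 against 9.62, 10.13 and 9.14. The differences of 2.5 and 2.21 had adjusted p-values of 0.335 and 0.056 in the robust fit, and the vehicle livers covered 9.42 to 11.31 and 8.04 to 9.31. Nrep, which encodes a small neuronal regeneration related protein, was 11.48, 10.84 and 11.42 against 12.78, 13.51 and 12.69, a difference of 1.75 ± 0.34 with an adjusted p of 0.0602.

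The 11 hepatocyte markers were all higher with rottlerin, by 0.08 to 0.29, with a median of 0.17 that was 0.02 without CCl4 replicate 3, where 7 were higher and 4 lower. Their summed signal was 260671 to 360593 in CCl4 livers, 354934 to 372071 in CCl4+Rot livers and 332803 to 379830 in vehicle livers. The median difference of the hepatocyte markers depended on CCl4 replicate 3. The difference of the brightest Cebpa probe set was 1.17 without that liver. Whether hepatocyte content had a part in the Cebpa result was not tested.

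Cholesterol synthesis genes were lower in CCl4+Rot than in CCl4 livers. All 25 listed genes on the array were well detected, of which 24 were lower and 1 higher. The median was -0.46 with or without CCl4 replicate 3. Without overlap 9 were lower (against 4.14% of all well detected genes), and 9 were at least 1.5-fold lower (against 2.58%). At an unadjusted p below 0.05, 8 were lower and 0 higher in the limma test, and none was called after adjustment. The median moved to -0.25 without CCl4+Rot replicate 4 and to -0.66 without CCl4+Rot replicate 6. Over the 25 genes the median log2 signal was 11.92, 12.13 and 11.92 in CCl4 livers, 10.97, 11.60 and 11.24 in CCl4+Rot livers and 11.34, 10.63 and 10.84 in vehicle livers. The 7 genes of this list among the 40 that were lower without overlap and by 1.5-fold were Acat2, Pmvk, Mvd, Idi1, Hsd17b7, Cyp51 and Dhcr7.

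These genes span the pathway from acetoacetyl-CoA to cholesterol. Acat2, which joins acetyl-CoA units at the entry, was 10.38, 11.07 and 11.07 in CCl4 livers and 9.08, 9.63 and 10.21 in CCl4+Rot livers, a difference of -1.20 ± 0.37 (SE). Mvd, which forms isopentenyl diphosphate, was 9.45, 9.91 and 9.78 against 8.21, 8.75 and 8.66, a difference of -1.17 ± 0.28. Dhcr7, which catalyses the last step, was 12.01, 12.13 and 11.99 against 10.89, 10.86 and 11.24, a difference of -1.05 ± 0.25 with an adjusted p of 0.104 in the robust limma fit. For Dhcr7 the CCl4 livers lay within a narrow range and the rottlerin livers overlapped the vehicle livers, at 10.08 to 10.99. Fdft1, the squalene synthase, differed by -0.58 ± 0.20 without overlap. Idi1 and Cyp51 differed by -0.97 and -0.74, but in each CCl4+Rot replicate 6, at 12.23 and 12.71, came close to the CCl4 range.

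The groups overlapped in several other members of the list. Hmgcs1 and Sqle, which act upstream and downstream of mevalonate, differed by -0.46 and -0.73, and CCl4+Rot replicate 4 was well below the other livers of its group in both. The gene of SREBP2 itself, Srebf2, differed by -0.15 and by 0.13 without CCl4 replicate 3. Insig1, which retains SREBP2 when sterols are plentiful, was 13.26, 13.10 and 12.31 against 11.65, 12.71 and 12.43. The letters TCACNCCAC, the sterol element, were found on either strand in 0 of the 18 members with a RefSeq promoter and in 344 of 27457 promoters (1.253%), which says only that this spelling is not in these windows.

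Abcg5 had the largest difference in the lower direction among well detected genes. It encodes, with Abcg8, the transporter that secretes cholesterol and plant sterols into bile. Its log2 signal was 10.67, 9.34 and 9.42 in CCl4 livers, 7.66, 6.65 and 7.81 in CCl4+Rot livers and 8.99, 9.46 and 8.20 in vehicle livers. The rottlerin livers were below all 6 others. Of the 19 well detected genes of bile acid synthesis and transport, the list that holds it, 10 were higher and 9 lower. The Abcg5 difference was -2.44 ± 0.51 (SE), or 5.41-fold, with an adjusted p of 0.104 in the robust limma fit, and it ranged from -2.67 to -2.01 with each CCl4 or CCl4+Rot array left out. P2rx7, the ATP-gated channel that triggers the inflammasome, had the smallest p of the lower genes. It was 8.71, 8.45 and 8.63 in CCl4 livers and 7.46, 7.71 and 7.41 in CCl4+Rot livers, a difference of -1.07 ± 0.20 with an adjusted p of 0.104, and the vehicle livers, at 7.63 to 8.17, were close to the rottlerin livers.

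The other leading genes that were lower served different functions. Mrps27, a protein of the mitochondrial ribosome, was 8.23, 8.25 and 8.51 in CCl4 livers and 7.68, 7.62 and 7.60 in CCl4+Rot livers, and Hspa9, the mitochondrial chaperone mortalin, was 9.83, 9.36 and 9.88 against 8.91, 9.11 and 8.65. Gmppb, which makes the GDP-mannose used in glycosylation, differed by -0.87, and Arfgap3, a regulator of Golgi transport, by -0.60. Sult2a2, a hydroxysteroid sulfotransferase, differed by -1.41 and B3gnt7, a glycan-building enzyme, by -1.21. In Sult2a2, B3gnt7 and Ccdc77 CCl4 replicate 3 was the highest liver, and without it the differences were -1.03, -0.86 and -0.86. RGD1310769 differed by -0.74. The adjusted p-values of these 8 genes in the robust fit lay between 0.104 and 0.310.

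The chaperones and enzymes of the endoplasmic reticulum were lower with rottlerin, 24 of 27 well detected members, with a median of -0.26 (-0.30 without CCl4 replicate 3, -0.16 without CCl4 replicate 1). Of these 6 were lower without overlap, against 4.14% of all well detected genes, and 0 were higher without overlap. In the limma test 2 were lower at an unadjusted p below 0.05. Creld2, a secreted stress protein induced by the unfolded protein response, was 11.08, 11.38 and 11.26 in CCl4 livers and 10.49, 10.80 and 10.59 in CCl4+Rot livers, against 10.11 to 10.42 in vehicle livers. Its difference was -0.61 ± 0.18 (SE). The adjusted p was 0.147 in the robust limma fit and 0.691 in the limma test over all probe sets. Sdf2l1, Dnajb9, Dnajb11, Pdia4 and Calr, which help proteins fold in this compartment, had differences between -0.50 and -0.25 without overlap. The stress effectors Trib3, Ddit3, Asns and Atf3 had differences between -1.65 and -0.69 with overlap, and Trib3 was high in CCl4 replicate 1 alone, at 10.86 against 7.42 and 8.21. Hspa5, the main chaperone, differed by -0.14. Xbp1, the transcription factor of the response, went the other way at 0.65 with overlap, from 13.46, 12.95 and 12.94 to 14.03, 14.02 and 13.24.

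**Figure D3:**
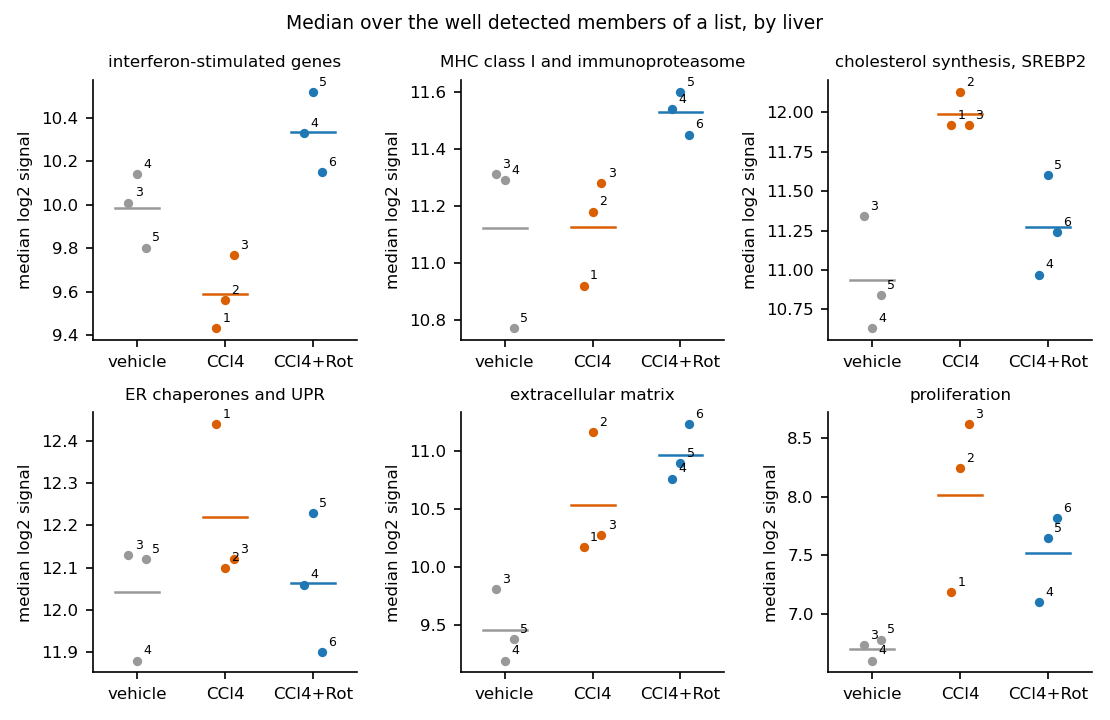
Median log2 signal over the well detected members of 6 gene lists in each liver, numbered by replicate, with vehicle in grey, CCl4 in orange, CCl4+Rot in blue and a bar at each group mean. The CCl4+Rot livers lie above all CCl4 livers for the interferon list (10.15 to 10.52 against 9.43 to 9.77) and below them for the cholesterol list, and the groups overlap for the endoplasmic reticulum, matrix and proliferation lists.

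The signalling genes that the study followed were read next. Stat3, the transcription factor downstream of IL-6, had 2 detected probe sets. The brighter was 9.35, 9.26 and 9.85 in CCl4 livers and 8.53, 8.82 and 9.12 in CCl4+Rot livers, and the dimmer was 9.39, 9.10 and 9.39 against 8.33, 8.64 and 8.73, neither with overlap. The differences were -0.66 ± 0.23 (SE) and -0.73, with adjusted p-values of 0.335 and 0.178 in the robust limma fit. Without CCl4 replicate 3 the differences were -0.48, which is less than 1.5-fold, and -0.68. The adjusted p-values of the robust limma fit were then 0.389 and 0.221. Junb and Bcl3, which STAT3 can induce, differed by -0.91 ± 0.34 and -0.64 ± 0.27, the former without overlap. Jak2, the kinase that phosphorylates STAT3, differed by 0.52 with an interval of -0.24 to 1.28, and by 0.17 without CCl4 replicate 3. Of 20 well detected genes of IL-6, JAK and STAT3 signalling, 12 were higher and 8 lower. In each direction 2 were without overlap, against 7.9% higher and 4.14% lower of all well detected genes. The median was 0.14, and it was -0.02 without CCl4 replicate 3.

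Transcripts of Il6, Kcnma1, which encodes the pore of the BK channel, Tgfb1 and Tgfbr2 were called present on none of the 6 arrays by the probe set used, and these genes are given no fold. Cxcl2 was present on 1 CCl4 array, Ccl2 on 1 CCl4+Rot array and Ifng on 1 array of each group. Smad3 differed by 0.06 with an interval of -0.58 to 0.71, and by -0.17 without CCl4 replicate 3, and the receptor Tgfbr1 by 0.13 with an interval of -0.30 to 0.55. Of 20 well detected genes of TGF-beta and SMAD signalling, 13 were higher and 7 lower, with a median of 0.07. Smad6, an inhibitory SMAD, was 7.70, 7.62 and 8.38 in CCl4 livers and 7.37, 7.51 and 6.92 in CCl4+Rot livers, a difference of -0.63 ± 0.26 (SE) that was -0.39 without CCl4 replicate 3. Smad7, the other inhibitory SMAD, differed by 0.40 without overlap, with an interval that included 0. No BK channel subunit was well detected. Of the protein kinase C genes 5 were, 2 higher and 3 lower, all with overlap, and Prkcd, the isoform linked to rottlerin, was 9.08, 9.29 and 9.41 against 9.39, 9.39 and 9.41.

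**Figure D4:**
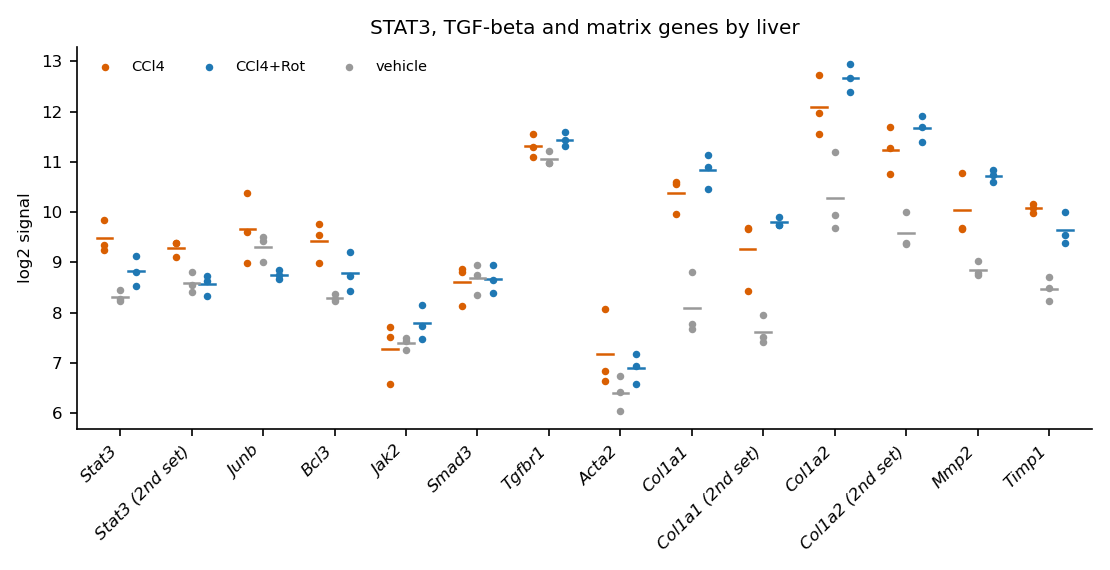
Log2 signal of each liver for STAT3 signalling, TGF-beta signalling and matrix genes, with CCl4 livers in orange, CCl4+Rot livers in blue, vehicle livers in grey and a bar at each group mean, and with the dimmer probe set of a gene marked as the 2nd set. Stat3 is lower in the CCl4+Rot livers in both probe sets (8.33 to 9.12 against 9.10 to 9.85 over the sets), whereas Col1a1 and Col1a2 lie as high as in CCl4 livers and above the vehicle livers.

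Extracellular matrix genes were not lower with rottlerin. Of 29 well detected members 26 were higher and 3 lower, 3 of them (against 7.9% of all genes) higher without overlap and 0 lower, with a median of 0.28 (0.27 without CCl4 replicate 3, 0.52 without CCl4 replicate 2). No member had an unadjusted p below 0.05 in the limma test. The chains of type I collagen, the main scar protein, were 9.97, 10.57 and 10.61 for Col1a1 and 11.56, 12.73 and 11.98 for Col1a2 in CCl4 livers. In CCl4+Rot livers they were 10.46, 10.90 and 11.14 and 12.40, 12.66 and 12.94, and in vehicle livers 7.68 to 8.81 and 9.69 to 11.20. All 6 treated livers thus lay above all vehicle livers in both genes. The differences were 0.45, with an interval of -0.39 to 1.29, and 0.58, with an interval of -0.48 to 1.64, and both intervals include 0. These values are of the brighter probe set of each gene. The dimmer set of Col1a1 was higher without overlap, by 0.54, and by 0.74 without CCl4 replicate 3. The dimmer set of Col1a2 was higher by 0.42 with overlap. Their intervals, -0.28 to 1.36 and -0.28 to 1.12, also include 0.

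Col6a1, a chain of the microfibrillar type VI collagen, was 10.44, 11.25 and 10.40 in CCl4 livers and 11.26, 11.52 and 11.60 in CCl4+Rot livers, a difference of 0.77 ± 0.33 (SE). Mmp2, a gelatinase made by stellate cells, differed by 0.68 ± 0.31, with CCl4 replicate 2 at 10.78 among the rottlerin values of 10.61 to 10.84. Timp1, the inhibitor of matrix-degrading enzymes, was the member with the lowest difference, -0.43 ± 0.22, at 10.17, 10.09 and 9.98 against 9.54, 9.39 and 10.01. CCl4 replicate 2 carried the highest matrix signal of its group, and the list median of the livers was 10.17, 11.16 and 10.27 in CCl4, 10.76, 10.89 and 11.23 in CCl4+Rot and 9.19 to 9.81 in vehicle livers. Of 13 well detected stellate cell and myofibroblast genes 9 were higher and 4 lower, none without overlap, with a median of 0.14 that was -0.01 without CCl4 replicate 1. Acta2, the smooth muscle actin of activated stellate cells, was present on 2 CCl4 and 3 CCl4+Rot arrays and was 6.64, 6.84 and 8.07 against 7.17, 6.94 and 6.58, a difference of -0.28 that was 0.16 without CCl4 replicate 3. The PDGF receptors Pdgfra and Pdgfrb, which mark stellate cells, differed by 0.46 and 0.61 with overlap.

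Proliferation genes depended on the livers chosen. Of 19 well detected members 15 were lower and 4 higher, with a median of -0.50, but none was free of overlap, none had an unadjusted p below 0.05 in the limma test and the median was -0.21 without CCl4 replicate 3, -0.998 without CCl4 replicate 1 and -0.16 over the members present on all 9 arrays. Mki67, which marks cycling cells, was 6.90, 8.28 and 8.50 in CCl4 livers and 7.10, 7.24 and 7.82 in CCl4+Rot livers. Ccna2 and Cdk1, which drive cells through the cycle, differed by -1.17 and -0.80. In each of these 3 genes CCl4 replicate 1 was the lowest of its group and lay among or below the rottlerin livers, and the other CCl4 livers lay above them.

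The median differences of hepatocyte metabolism lists were small. For fatty acid oxidation, drug-metabolizing and conjugating enzymes, acute-phase proteins and the periportal and pericentral gene sets, the median differences of 0.15 to 0.26 became -0.03 to 0.14 without CCl4 replicate 3. The median of the acute-phase list also changed sign between normalizations, from 0.15 to -0.03. Cyp2e1, the P450 that activates CCl4 in pericentral hepatocytes, was 14.85, 14.94 and 14.06 in CCl4 livers and 15.04, 15.04 and 15.03 in CCl4+Rot livers, a difference of 0.42 that was 0.14 without CCl4 replicate 3. Single members differed more. Serpina3m, an acute-phase serpin gene, was 11.11, 11.12 and 10.91 in CCl4 livers, 13.57, 11.59 and 12.87 in CCl4+Rot livers and 11.67 to 13.49 in vehicle livers, a difference of 1.63 ± 0.62 (SE) that was 1.56 without CCl4 replicate 3. Pdk4, the kinase that shuts off pyruvate oxidation, differed by -0.98 without overlap, with CCl4 replicate 1 at 13.21 and the other CCl4 livers at 11.18 and 11.23 against 10.57 to 11.13. Sds, the serine dehydratase of periportal cells, differed by 1.22 with overlap and by 0.53 without CCl4 replicate 3. Oat, the ornithine aminotransferase of pericentral cells, differed by 0.91 ± 0.35 (SE) with overlap. Sult1e1, the estrogen sulfotransferase, was 14.57, 14.53 and 14.53 against 14.89, 14.99 and 14.91, a difference of 0.39 ± 0.14 that was 0.38 without that liver. Slc27a5, which activates bile acids for conjugation, differed by 0.47 ± 0.16 without overlap, from 13.51, 13.36 and 13.24 to 14.02, 13.76 and 13.74.

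Of 20 cytosolic ribosomal protein genes 17 were lower, by small amounts with a median of -0.05. Without CCl4 replicate 3 all 20 were lower, each without overlap, with a median of -0.24, when 829 of all well detected genes (11.2%) were lower without overlap, whereas the median was 0.06 without CCl4 replicate 1 and 0.05 without CCl4 replicate 2. Fatty acid synthesis genes were split, with 8 higher and 8 lower. Elovl5, which elongates fatty acids, was higher without overlap, by 0.33. Acss2, which activates acetate, and Gpam were lower without overlap, at -0.45 and -0.31. Of all well detected genes 7.9% were higher and 4.14% lower without overlap. Of 17 NRF2 targets, the antioxidant genes, 10 were lower and 7 higher, and Srxn1 had the largest difference at -0.74 ± 0.30 (SE). Of 8 clock genes 6 were higher and 2 lower, with a median of 0.35. Without overlap 4 were higher, against 7.9% of all well detected genes. Dbp, an output factor of the clock, was 10.20, 10.84 and 9.28 in CCl4 livers and 11.17, 11.46 and 11.35 in CCl4+Rot livers, a difference of 1.22 ± 0.36. Its relative Tef was 8.61, 8.04 and 7.99 against 9.03, 8.94 and 8.76, a difference of 0.70 ± 0.21. The vehicle livers were higher still, at 11.66 to 11.92 for Dbp and 9.67 to 9.93 for Tef. The hour at which each liver was taken is not given in the sources used here, and its part in these differences was not tested.

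**Figure D5:**
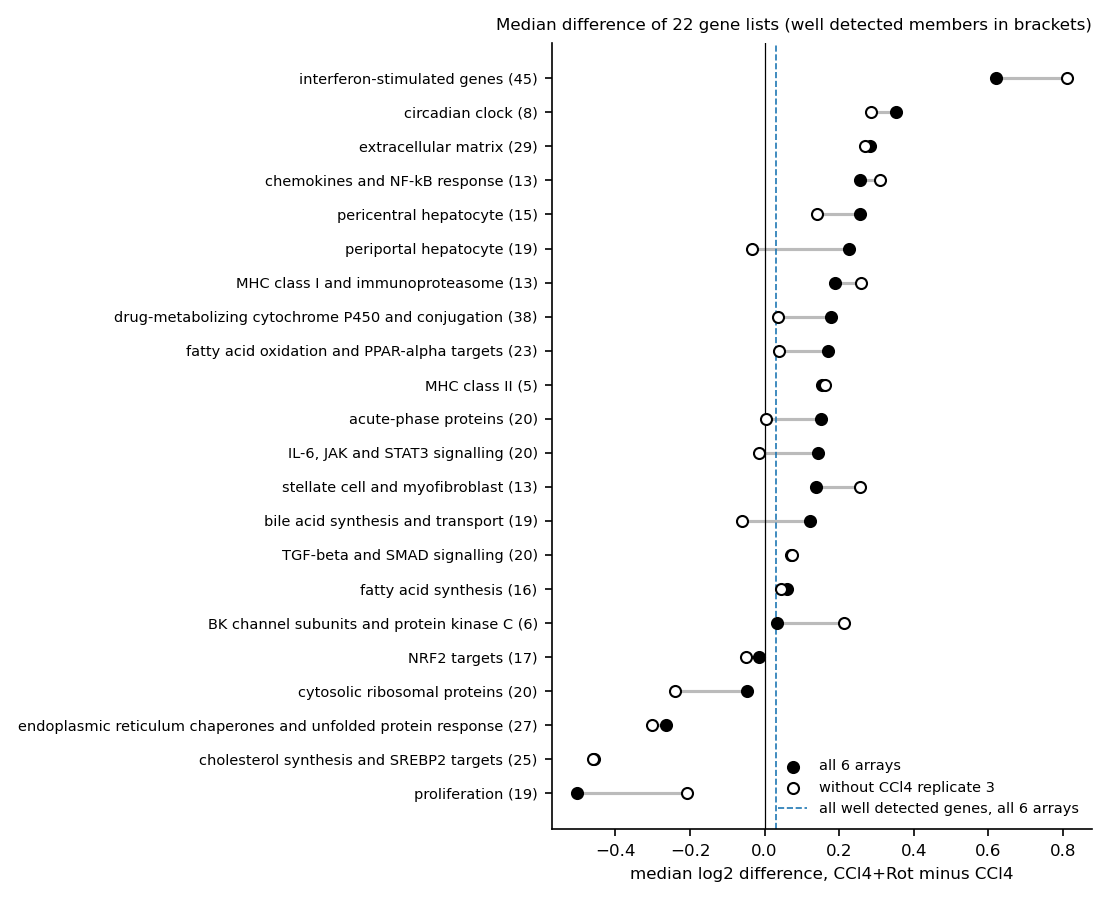
Median log2 difference between CCl4+Rot and CCl4 livers (horizontal axis) over the well detected members of 22 gene lists, with all 6 arrays (filled) and without CCl4 replicate 3 (open), and with the median of all well detected genes as a dashed line at 0.03. The interferon list lies farthest to the right at 0.62 and 0.81, the cholesterol list keeps -0.46, and the proliferation median moves from -0.50 to -0.21.

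Genes of infiltrating cells gave mixed values. The probe set shared by Mcpt10 and RGD1565970 was 7.30, 7.08 and 7.04 in CCl4 livers, 8.66, 9.66 and 9.38 in CCl4+Rot livers and 5.46, 6.26 and 5.51 in vehicle livers. It rose by 2.09 (robust limma fit, adjusted p = 0.041), was 2.04 higher without CCl4 replicate 3 (adjusted p = 0.0559) and cannot be assigned to either gene. Of 14 mast cell markers on the array, 4 were well detected, 3 higher and 1 lower, with a median of 0.41, and 5 were present on none of the 6 arrays, including Kit, Tpsab1 and Tpsb2. Their summed signal was 1625 to 3291 in CCl4 livers, 2612 to 3947 in CCl4+Rot livers and 1043 to 1377 in vehicle livers, so the ranges of the treated groups overlapped. Cpa3, the mast cell carboxypeptidase, was 8.07, 8.29 and 9.24 against 8.91, 9.76 and 9.51, and Mcpt2, a mucosal mast cell protease present on 2 CCl4 and 3 CCl4+Rot arrays, was 7.86, 8.02 and 7.70 against 9.60, 10.14 and 9.27. Hdc, which makes histamine, went the other way at -0.31 with overlap. Mcpt1, present on 2 arrays of each group, differed by -1.08 and by -0.07 without CCl4 replicate 3. The part of mast cell number in the protease values was not tested.

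S100a8 and S100a9, calcium-binding proteins of neutrophils and monocytes, were 7.08, 8.18 and 7.69 and 8.61, 9.36 and 8.77 in CCl4 livers, and 8.43, 9.29 and 8.89 and 9.76, 10.48 and 10.40 in CCl4+Rot livers. The differences of 1.22 and 1.30 had adjusted p-values of 0.650 and 0.581 in the robust fit, and Lcn2 of the same marker list differed by -0.52. Of 7 neutrophil markers on the array 3 were well detected, Cxcr2 and Camp were absent on all 9 arrays, and the summed signal was 1478 to 5776 in CCl4 and 2634 to 6892 in CCl4+Rot livers. T and NK cell markers were sparse, with 3 of 21 well detected, 9 present on none of the 6 arrays, including Cd4 and Cd8a, and a summed signal of 1686 to 4697 in CCl4 and 2552 to 2997 in CCl4+Rot livers. The well detected members Gzma, Klrd1 and Il2rb differed by 0.78, -0.003 and -0.12, all with overlap. Without CCl4 replicate 3 they differed by 1.29, 0.43 and 0.26. Prf1, the perforin of killer lymphocytes, was not well detected, being present on 0 CCl4 and 3 CCl4+Rot arrays, and its groups overlapped. The part of these cells in the interferon result was not tested. Among 13 well detected chemokine and NF-kB genes 11 were higher and 2 lower, with a median of 0.26. Ccl6, a chemokine of myeloid cells, and Icam1, the adhesion molecule that leukocytes bind, differed by 0.51 ± 0.23 and 0.55 ± 0.26 (SE) without overlap. Spp1 (osteopontin), made by scar macrophages and bile duct cells, was 12.11, 9.90 and 11.58 in CCl4 livers and 10.46, 8.11 and 8.74 in CCl4+Rot livers, which overlapped, and was named after its values were seen. The endothelial markers, 11 well detected, had a median difference of 0.08, the cholangiocyte markers, 6 well detected and with Onecut1 and Spp1 at opposite ends, of -0.13, and the B and plasma cell, erythroid and adipocyte markers had 2, 2 and 3 well detected members.

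Set beside the vehicle livers, whose arrays enter the comparison only through the spread, the 94 genes that were higher without overlap had a CCl4+Rot mean within the vehicle range in 33 cases, above it in 53 and below it in 8. For the 40 genes that were lower the mean was within the vehicle range in 15 cases, below it in 17 and above it in 8. Mx2 and Oas1a were examples of the former group, at rottlerin means of 10.13 and 10.52 within vehicle ranges of 9.75 to 10.27 and 10.04 to 10.89. Slfn3, Mx1 and Irf7 had rottlerin livers above every vehicle liver, and Abcg5, Sult2a2 and Hspa9 had rottlerin means below the lowest vehicle liver.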

How the data were processed

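Total RNA of frozen liver was labelled and hybridized to rat genome microarrays, 1 rat per array, and chromosome numbers of genes are those of the deposited annotation, whose genome build is not given in the sources used here. The authors deposited log2 signals and detection calls; the submitters' processing notes name MAS5 and affy, without versions, and the mean antilog signal after trimming 2% at each end was 500 on every array, a scaling under which a difference is relative to the whole array. The deposited calls (present, marginal or absent), which are of no numeric unit, set the detection filter.

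Control probe sets were left out, 57 of 31099 rows. Log2 signals were compared without further normalization in limma 3.58.1 (R 4.3.3), with 3 group means over 9 arrays, the contrast of CCl4+Rot minus CCl4 and Benjamini-Hochberg adjustment over 31042 probe sets. A call needed an adjusted p below 0.05 and 1.5-fold, the threshold of the study. The robust fit, an alternative, used the probe sets present on all 6 arrays, a spread following the signal and statmod 1.5.0, and its repeat without CCl4 replicate 3 was chosen after the data were seen. SEs and 95% intervals come from the limma test over all probe sets. This holds also where an adjusted p of the robust fit stands beside them. An exact permutation test of 3 against 3 livers cannot give a p below 0.1 and was not used. Other alternatives were quantile normalization, centring, array weights, other detection filters, the mean over probe sets, the methods' t-test and the omission of each array. The fits were tested on simulated data.

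The comparison, the 22 pathway lists, the 12 marker lists and the rules were chosen with earlier results of these data known. Named were the 12 well detected genes of each direction with the smallest p among those without overlap and past 1.5-fold with and without CCl4 replicate 3, the 4 members of each pathway list with the smallest p, and the signalling and matrix genes the study followed. Other members are named as examples of their lists. Promoter sequences and their coordinates came from RefSeq (GRCr8). Some genes that these rules select are not reported here.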

Additional observations from a re-analysis of the deposited data

How the results depend on the processing

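No paired analysis was possible because the CCl4 livers are numbered 1, 2 and 3 and the CCl4+Rot livers 4, 5 and 6, so that no number is shared. The limma test called 1 probe set, and the count was 0 to 2 with each array left out, 0 after quantile normalization, centring or a fit of only the CCl4 and CCl4+Rot arrays, and 2 over detected probe sets alone. The methods' t-test gave 851 probe sets at the unadjusted threshold with 1.5-fold and 0 after Benjamini-Hochberg adjustment. Of well detected genes 0 were called, compared with 1 under the robust spread over all probe sets, 1 over detected probe sets alone, 5 with both, and 9 with both and no CCl4 replicate 3. Genes at least 1.5-fold higher numbered 177, and 183 to 321 with an array left out, 278 with detection required on the 5 arrays other than CCl4 replicate 3 and 41 at 2-fold. Genes at least 1.5-fold lower numbered 190, and 124 to 365 with an array left out and 25 at 2-fold. Genes without overlap numbered 582 higher and 305 lower, and 824 to 1244 and 498 to 829 with an array left out, where fewer livers make separation easier, and 478 were lower after quantile normalization. Of the 108 well detected genes that the naming rule selected, 6 changed sign under a setting. Among the other genes named with a value, Irf1, Srebf2, Psme1, Acta2, Klrd1 and Il2rb changed sign without CCl4 replicate 3. With each array left out, Ciita ranged from -0.71 to 0.16 (0.16 without CCl4 replicate 3 in either fit), RT1-Da from -0.012 (without CCl4+Rot replicate 6) to 0.30, Prkcb from -0.021 (without CCl4+Rot replicate 6) to 0.55, Camk2d from -0.047 (without CCl4 replicate 1) to 0.55 and Smad3 from -0.17 (without CCl4 replicate 3, in either fit; -0.080 without CCl4+Rot replicate 4) to 0.20. With array weights the values were 0.012 for Ciita, -0.038 for RT1-Da, -0.093 for Camk2d, -0.13 for Smad3 and -0.022 for Tgfbr1. The cause was not tested. Of 242 list medians recomputed, 0 moved by more than the SD between livers, but some changed sign. The IL-6, JAK and STAT3 median went from 0.14 to -0.02 without CCl4 replicate 3. That of MHC class II went from 0.15 to -0.01 without CCl4+Rot replicate 6. The stellate cell and myofibroblast median went from 0.14 to -0.006 without CCl4 replicate 1. With 3 livers per group, the number of arrays limits the precision, and genes not called present have no level to compare.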
